A study of Mus musculus with 6 samples.

Results

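The saline control pancreas was profiled in 3 small RNA libraries, numbered 43, 44 and 45, out of 6 in the study. They were chosen by their titles, which place them in the control group. All 3 came from C57BL/6 mice of 22 to 25 g that received 7 intraperitoneal injections of normal saline, 1 per hour, and the pancreas was taken 24 hours after the start. The other 3 libraries came from a pancreatitis model and were not used here, so every statement below describes control tissue and no treatment effect. Of the 1414 rows of the deposited table, 1104 were known mouse miRNA arms, and 1090 of these remained after each mature sequence was kept once. Whether the 3 libraries derive from separate mice is not stated in the labels, and their spread may therefore be technical in part.

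A miRNA is cut from a hairpin precursor by the enzymes Drosha and Dicer, and each hairpin can yield a mature strand from its 5′ side (the 5p arm) and from its 3′ side (the 3p arm). The strand that is loaded into an Argonaute protein guides it to messenger RNAs, mainly through the seed, bases 2 to 8 of the miRNA, so miRNAs with one seed form a family with overlapping targets. The exocrine pancreas consists mostly of acinar cells, which make digestive enzymes, with ducts, blood vessels and scattered endocrine islets among them. Counts in whole tissue pool all of these cells, and fewer cells of a type cannot be told apart from less RNA per cell.

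The mature sequences below were taken from RefSeq (GRCm38.p6) and have the seed in capitals. The first set is from the let-7 family, which held the largest share of the counts and whose members differ only outside the seed.
let-7c-5p: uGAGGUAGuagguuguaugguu
let-7a-5p: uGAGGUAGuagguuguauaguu
let-7f-5p: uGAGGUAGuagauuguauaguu
let-7b-5p: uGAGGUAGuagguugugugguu
let-7g-5p: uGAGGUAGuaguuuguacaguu
let-7i-5p: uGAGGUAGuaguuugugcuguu
let-7d-5p: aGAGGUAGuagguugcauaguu

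The second set holds the miR-200 arms, epithelial miRNAs that fall under the seeds AAUACUG and AACACUG.
miR-200c-3p: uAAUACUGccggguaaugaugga
miR-429-3p: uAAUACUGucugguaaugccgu
miR-200b-3p: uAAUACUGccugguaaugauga
miR-200a-3p: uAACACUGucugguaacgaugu
miR-141-3p: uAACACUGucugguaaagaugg

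The third set is miRNAs listed below as acinar markers and the seed relative of miR-148a-3p, miR-152-3p. Both arms of mir-217 are shown because their balance differed between the libraries.
miR-802-5p: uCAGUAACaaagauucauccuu
miR-148a-3p: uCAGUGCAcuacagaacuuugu
miR-152-3p: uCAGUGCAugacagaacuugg
miR-216a-5p: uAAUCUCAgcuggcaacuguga
miR-216b-5p: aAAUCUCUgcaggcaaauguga
miR-217-5p: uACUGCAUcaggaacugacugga
miR-217-3p: cAUCAGUUccuaaugcauugccu

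The fourth set completes the families and single arms to which the counts return below, from the vessels, the blood and the broadly expressed miRNAs.
miR-26a-5p: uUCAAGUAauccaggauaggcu
miR-22-3p: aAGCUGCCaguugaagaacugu
miR-99a-5p: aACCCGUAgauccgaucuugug
miR-126a-3p: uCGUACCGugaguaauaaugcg
miR-451a: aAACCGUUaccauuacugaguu
miR-30a-5p: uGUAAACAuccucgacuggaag
miR-30c-5p: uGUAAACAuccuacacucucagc
miR-30e-5p: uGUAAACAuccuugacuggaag
miR-125b-5p: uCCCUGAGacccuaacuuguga

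Known arms summed to 2595436 counts in Control 43, 2328220 in Control 44 and 1924215 in Control 45. Levels are given as CPM, counts scaled to a common total of this kind, or as its percentage, and no length scaling was applied because 1 read covers a mature arm. A count of 0 allowed up to 3 counts, or 1.16 to 1.56 CPM depending on the library. Counting intervals and these floors cover counting error only. Ligation of adapters favours some RNA ends over others, so the order of miRNAs in these libraries is an order of counts, not of molecules in the cell. Across the 1090 arms, Pearson's r between libraries on log2(CPM + 1) was 0.981 to 0.984, a description over arms that include many undetected in all libraries. The chi-square of each pair was 103.3 to 269.6 per degree of freedom, so none was a repeat deposit of another. That value does not bear on whether the libraries came from separate mice.

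The control pancreas was led by miR-375-3p, the islet miRNA that restrains insulin secretion. Its level was 50743 CPM in Control 43, 54755 in Control 44 and 60182 in Control 45. This made up 5.52% ± 0.474 (SD, n = 3) of all known counts, and it ranked first in each library. The exact 95% binomial interval of the lowest of these values ran from 50477 to 51011 CPM. The miR-375 gene lies at chr1:74900658-74900721 on the minus strand (GRCm38), outside any annotated host gene.

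The next 3 arms lay close together. miR-26a-5p, a broadly expressed miRNA, had 40526, 43446 and 41007 CPM in Controls 43, 44 and 45. miR-22-3p, which is encoded in an exon of the noncoding gene Mir22hg, had 40682, 42551 and 40840 CPM. let-7c-5p had 40245, 39803 and 40770 CPM. The ranges of these 3 arms overlapped. let-7c-5p was the lowest of them in every library, while miR-26a-5p and miR-22-3p changed places between libraries.

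let-7a-5p stood at 36758, 36550 and 35040 CPM, below every library's value for let-7c-5p. The endothelial miR-126a-3p, which lies in the gene of the vascular protein Egfl7, had 34729, 38473 and 34392 CPM. miR-99a-5p had 32950, 37603 and 30183 CPM, with its highest value in Control 44. The last of the let-7 arms in this range, let-7f-5p, had 34355, 33197 and 31623 CPM, and these 3 arms and let-7a-5p overlapped in part.

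The next arms, miR-802-5p and miR-148a-3p, are known from acinar cells and also from liver, and the second was uneven. The value for miR-802-5p was 27153, 26910 and 31852 CPM. That for miR-148a-3p was 23009, 21254 and 38750 CPM, so it ranked 17 in Control 43, 19 in Control 44 and 5 in Control 45. Ranks 11 to 15 by the mean were let-7b-5p (26820 CPM ± 1246, SD, n = 3), miR-200c-3p (25518 ± 1232), miR-216a-5p (25344 ± 5264), let-7g-5p (25276 ± 1574) and miR-200a-3p (24223 ± 2033). Among the 20 most abundant arms, only miR-375-3p and let-7c-5p had a lowest library above the highest library of the next arm in rank. miR-375-3p was thus the most abundant arm whose range did not meet that of its neighbour. The 10 arms highest by the mean included 9 of each library's own 10, and 8 were shared by all 3 libraries.

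**Figure D1:**
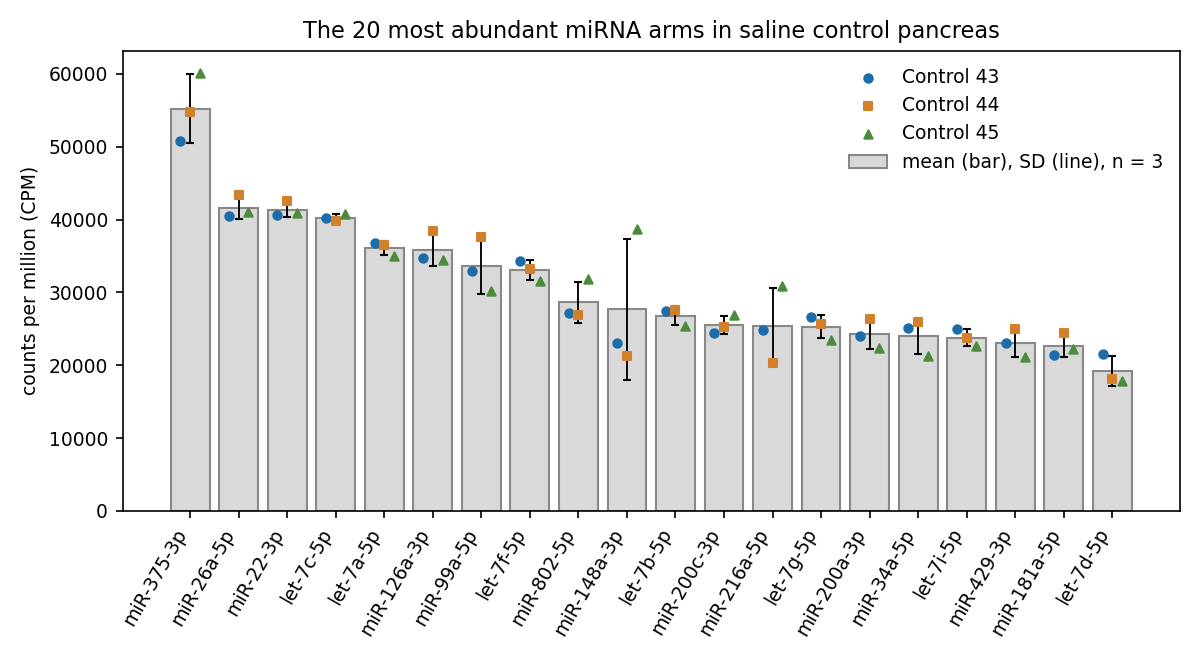
Level in CPM of the 20 most abundant arms, with 1 point per library, a bar for the mean and a line for the SD (n = 3). miR-375-3p lies above all other arms in each library, and miR-148a-3p is the most uneven of the 20, with 38750 CPM in Control 45 against 21254 in Control 44.

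Counts were concentrated in few arms. The 10 most abundant held 36.1, 37.5 and 38.5% of the counts in Controls 43, 44 and 45 (37.3% ± 1.18, SD, n = 3). The first 20 held 61.3% ± 0.784, and the first 93, all of at least 1000 CPM, held 96.3% ± 0.181. By the mean, 15 arms made up 50% of the counts, 58 made up 90% and 166 made up 99%. These numbers varied little by library, with 161 to 166 arms for 99%. Of the 1090 arms, 918 were detected in at least 1 library and 599 in all 3, while 201 were seen in 1 library only, each with at most 7 counts there. The 741 arms under 10 CPM together held 0.0931% ± 0.00581 of the counts. The 172 arms at 0 in all libraries were not detectable at this depth.

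**Figure D2:**
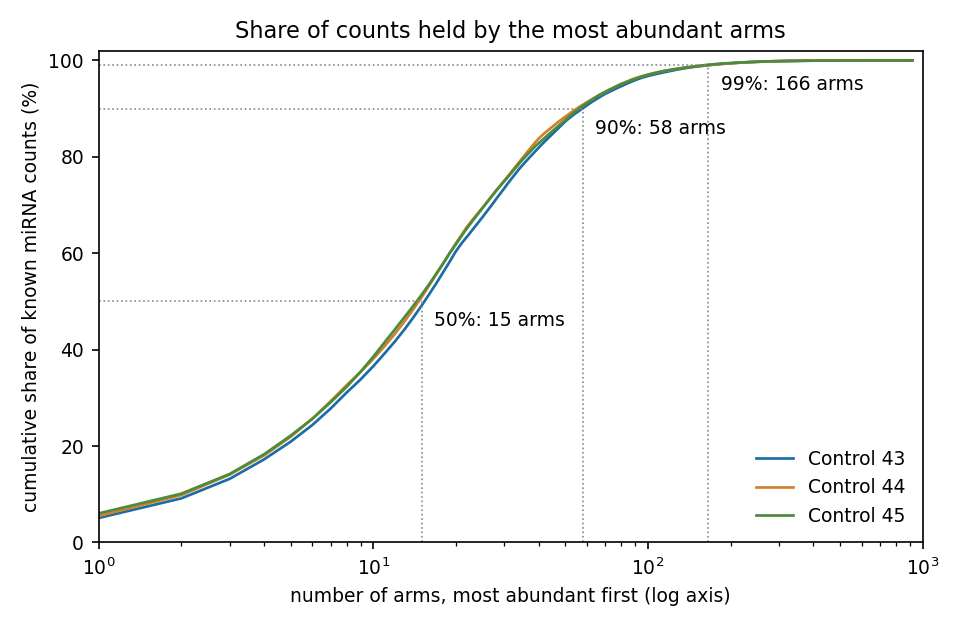
Cumulative share of known miRNA counts (%) against the number of arms taken from the most abundant downwards (log axis), with 1 line per library and dotted lines at 50, 90 and 99%. The 3 lines nearly coincide, and 15, 58 and 166 arms reach these shares by the mean.

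By seed, the let-7 family (GAGGUAG, 10 arms) came first. let-7 miRNAs are abundant in differentiated tissue, and their precursors are blocked by the protein Lin28 in early embryos. The family held 22.0, 21.0 and 20.3% of the counts in Controls 43, 44 and 45 (21.1% ± 0.838, SD, n = 3), and 7 of the 20 most abundant arms belonged to it. No single member dominated, since let-7c-5p, the most abundant, made up 19.1% of the family. let-7e-5p (3932 CPM ± 1210) and miR-98-5p (2499 ± 428) were far lower, and let-7k stood at 3.53 CPM ± 0.403. let-7a-5p differs from let-7c-5p and from let-7f-5p by 1 base each, as does let-7b-5p from let-7c-5p, so the split of reads among these arms is uncertain while the family total is not affected by it.

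Of the 8 largest families, 3 rested on 1 arm: miR-375 with 5.52% of the counts, miR-22 with 4.14% ± 0.104 and miR-126a with 3.59% ± 0.227. The rest of the 8, let-7 apart, had 2 or 3 arms each. The miR-26 family (miR-26a-5p and miR-26b-5p) held 5.29% ± 0.228, and 78.7% of it was miR-26a-5p. The miR-99 family (ACCCGUA) held 4.39% ± 0.608, of which miR-99a-5p was 76.5%, followed by miR-99b-5p (6810 CPM ± 1587) and miR-100-5p (3498 ± 805). The 8 families together held 53.2% ± 1.33 of the counts, although the known arms carried 919 different seeds.

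miR-200 miRNAs repress Zeb1 and Zeb2, the factors that push epithelial cells towards a mesenchymal state. Under the seed AAUACUG, miR-200c-3p, miR-429-3p and miR-200b-3p held 5.36% ± 0.127 (SD, n = 3). Under AACACUG, miR-200a-3p and miR-141-3p held 3.80% ± 0.143. Across the libraries these shares ran only from 5.25 to 5.50% and from 3.64 to 3.90%. With the lesser arms included, the family made up 9.32% ± 0.216 of the counts. The members were less equal than the totals, since miR-141-3p had 12386, 12627 and 16358 CPM while miR-200b-3p had 5940, 4793 and 4518 CPM. The first was highest in Control 45 and the second in Control 43, also after TMM scaling of the libraries. miR-200a-3p and miR-141-3p differ by 2 bases.

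Just below the 8 largest came 2 families that were the least even among the 10 largest. The miR-148 family (CAGUGCA) held 2.53, 2.31 and 4.52% in Controls 43, 44 and 45. The miR-30 family (GUAAACA), which is found in many epithelia, held 2.86, 2.01 and 4.13%. Both were highest in Control 45 and lowest in Control 44.

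Markers of the cells that make up the tissue were summed over 10 lists of miRNAs known from particular cell types. Together the lists held 34.2, 33.9 and 36.9% of the counts in Controls 43, 44 and 45, and the broadly expressed let-7, miR-26, miR-22 and miR-99 arms are on none of them. Markers of the labelled tissue were present: the acinar list held 9.61% ± 1.82 (SD, n = 3) and the islet list 6.60% ± 0.572. Without miR-802 and miR-148a, which are also known from liver, the acinar list held 3.72, 3.23 and 4.49% (3.81% ± 0.633).

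All 10 acinar arms were detected in each library, 9 of them at 100 CPM or more. The list summed to 8.92, 8.23 and 11.7% in Controls 43, 44 and 45, and Control 45 lay above the other two. The list was led by miR-802-5p with 29.8% of its counts, ahead of miR-148a-3p (27671 CPM ± 9635) and miR-216a-5p. Within it, miR-216a-5p, from a pancreas-enriched hairpin group with miR-216b and miR-217, had 24850, 20344 and 30838 CPM. Its neighbour miR-216b-5p was among the steadiest arms of all, at 7026, 6814 and 7095 CPM. The higher total of Control 45 thus did not run through every member, and of the 9 arms at 100 CPM or more, 6 were highest in Control 45 and 3 in Control 44. Over all 191 arms of that level, 55 were highest in Control 45 and 72 in Control 44.

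The islet list was 83.7% miR-375-3p. miR-7a-5p, an abundant miRNA of endocrine cells, had 8107, 7794 and 9867 CPM, and miR-7b-5p had 905, 709 and 1220 CPM. Without miR-375-3p the list fell to 1.08% ± 0.117. miR-204-5p (426 CPM ± 86.0) and miR-184-3p (393 ± 58.1) were low. These sums do not show how much of miR-375-3p came from endocrine cells, which was not tested.

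The epithelial list, which holds the miR-200 arms with the miR-183 group, miR-203 and miR-205, was the largest and had the least spread of the 10 for its level, at 10.5, 10.4 and 10.8% (10.6% ± 0.220). Its leading members were miR-200c-3p, miR-200a-3p and miR-429-3p. miR-205-5p, a miRNA of stratified epithelia, was at 25.7 CPM ± 4.02. The endothelial list was likewise even, at 4.06, 4.21 and 3.86%, and 88.7% of it was miR-126a-3p. The second arm of that hairpin, miR-126a-5p, had 5854, 3605 and 4239 CPM. The next member, miR-126b-3p, was at 1.38 CPM ± 1.31.

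Smooth muscle and fibroblast miRNAs held 2.01, 2.51 and 1.59% of the counts. They were 83.7% miR-143-3p, which controls the contractile state of smooth muscle with miR-145a. miR-143-3p had 16591, 21992 and 12529 CPM, highest in Control 44 and lowest in Control 45. miR-145a-5p ran in the other order, at 1432, 1106 and 1725 CPM. miR-199a-5p had 1189, 1261 and 955 CPM.

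Blood markers were low and highest in Control 43. Leukocyte miRNAs summed to 0.728% in Control 43, 0.462% in Control 44 and 0.424% in Control 45, and 75.7% of their mean was miR-150-5p, a miRNA of mature lymphocytes (5237, 3758 and 3221 CPM). miR-142a-3p, found in all blood lineages, had 522, 136 and 291 CPM. The myeloid miR-223-3p had 471, 218 and 214 CPM. All 6 leukocyte arms at 100 CPM or more were highest in Control 43, against 64 of the 191 arms of that level overall.

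The erythroid list was 96.2% miR-451a, a red cell miRNA that is matured by Argonaute 2 without Dicer. It had 13160, 10216 and 8787 CPM, and the list as a whole summed to 1.37, 1.05 and 0.925%. miR-144-3p (300 CPM ± 94.3) and miR-486a-5p (88.5 ± 18.8) followed. Both erythroid arms at 100 CPM or more were also highest in Control 43, but after TMM scaling only miR-451a was, whereas all 6 leukocyte arms remained so. How far blood left in the vessels of the tissue contributes to these values was not tested.

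Markers of tissues outside the pancreas held little of the counts. The striated muscle list held 0.0128% ± 0.00546 of the counts, with miR-1a-3p at 73.6 CPM ± 33.9, miR-133a-3p at 24.2 ± 6.11 and miR-1b-5p at 11.6 ± 12.7. miR-208a, which marks the heart, was at 0 on both arms in every library. The neural list held 0.194% ± 0.0283, but 93.5% of it was miR-138-5p (1816 CPM ± 277), which is not confined to neurons. miR-219a-5p was at 52.6 CPM ± 10.5 and miR-137-3p at 22.2 ± 8.16, and the neuron marker miR-124-3p stood at 11.0 CPM ± 6.20. The liver and intestine list held 0.308% ± 0.0598, led by miR-192-5p (2277 CPM ± 572) and miR-194-5p (644 ± 200.0), which are also found in other epithelia. The third member was the hepatocyte miRNA miR-122-5p, with 45.5 CPM in Control 43, 304.5 in Control 44 and 35.3 in Control 45.

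**Figure D3:**
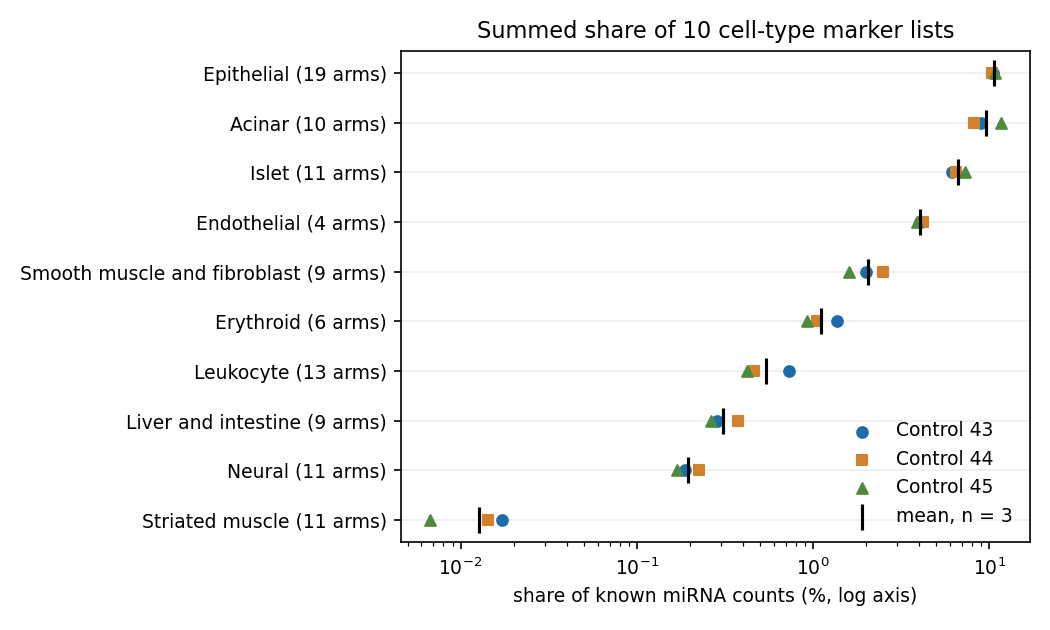
Summed share of known miRNA counts (%, log axis) for 10 cell-type marker lists, with 1 point per library and a black mark for the mean (n = 3). Epithelial, acinar and islet markers lead at 6.60 to 10.6%, and striated muscle markers lie lowest at 0.0128%.

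In arm usage, 5p strands held 59.8% ± 1.09 (SD, n = 3) of the counts and 3p strands 38.9% ± 1.16. The rest came from arms named without a side. Of 356 hairpins with both arms listed, 240 had at least 10 counts over the 2 arms on average. Of these, 95 gave at least 90% of their counts from the 5p arm in every library and 66 from the 3p arm, and 79 met neither limit. The minor arms of all these hairpins together made up 2.45% ± 0.0837 of the counts of paired hairpins. Where an arm has several loci, all its counts were set against the other arm of 1 hairpin. This can raise its share there, so the arm class of such hairpins is less certain. Among the 154 hairpins of at least 100 CPM, the 5p share of a typical hairpin ranged over 0.631 percentage points between libraries (median).

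Some hairpins showed a single arm. mir-146a, an inflammation-responsive hairpin, gave 7395, 3845 and 3154 counts from its 5p arm and 0 from its 3p arm. mir-181b-1, mir-155 and mir-33 also had no 3p count, and let-7b (2, 0 and 0 counts) and let-7g (0, 1 and 1) had almost none. The counts of miR-181b-5p cannot be assigned to mir-181b-1 alone, since that arm has 2 loci.

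On the 3p side, mir-429 gave 59693, 58108 and 40734 counts of miR-429-3p and none of its 5p arm. mir-376c likewise had no 5p count. mir-375 gave 2, 4 and 0 counts from its 5p arm beside 131701, 127481 and 115803 from its 3p arm. mir-143, mir-23a and mir-320 followed, with a mean 3p share of 99.98, 99.98 and 99.96%.

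Among the 154 hairpins of at least 100 CPM, those nearest to an even split were mir-1843a, mir-369, mir-214, mir-142a, mir-217 and mir-17. The mir-217 hairpin was by far the most abundant of them, at 4143 CPM over both arms, and it was also the least stable. Its 5p share was 37.3% in Control 43, 24.7% in Control 44 and 66.5% in Control 45. The 5p arm had 3671, 1867 and 6900 counts, and the 3p arm had 6165, 5701 and 3470. The 5p arm was therefore the minor strand in 2 libraries and the major one in the other, and in CPM the 5p arm was highest in Control 45 and the 3p arm in Control 44.

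The range of 41.9 percentage points for mir-217 was the largest among the 154 hairpins. mir-214 came next, with a 5p share of 51.2, 57.6 and 28.9%. mir-142a, the blood hairpin, gave 47.1, 50.4 and 35.4%. For mir-369 the share was 37.0, 55.1 and 48.1%, and for mir-1843a it was 54.9, 51.4 and 48.2%. mir-17 stayed on the 5p side throughout, at 55.8, 61.5 and 65.0%. The major arm changed between libraries in 5 of the 154 hairpins, the first 5 of the 6 named as nearest to an even split. Any crossing of 50% was counted, without regard to counting error. For mir-142a the change rested on Control 44 alone, with 322 counts of the 5p arm and 317 of the 3p arm. For mir-1843a it rested on Control 45 alone, with 266 and 286 counts. In mir-217, mir-214 and mir-142a, Control 45 was the library farthest from the other two.

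**Figure D4:**
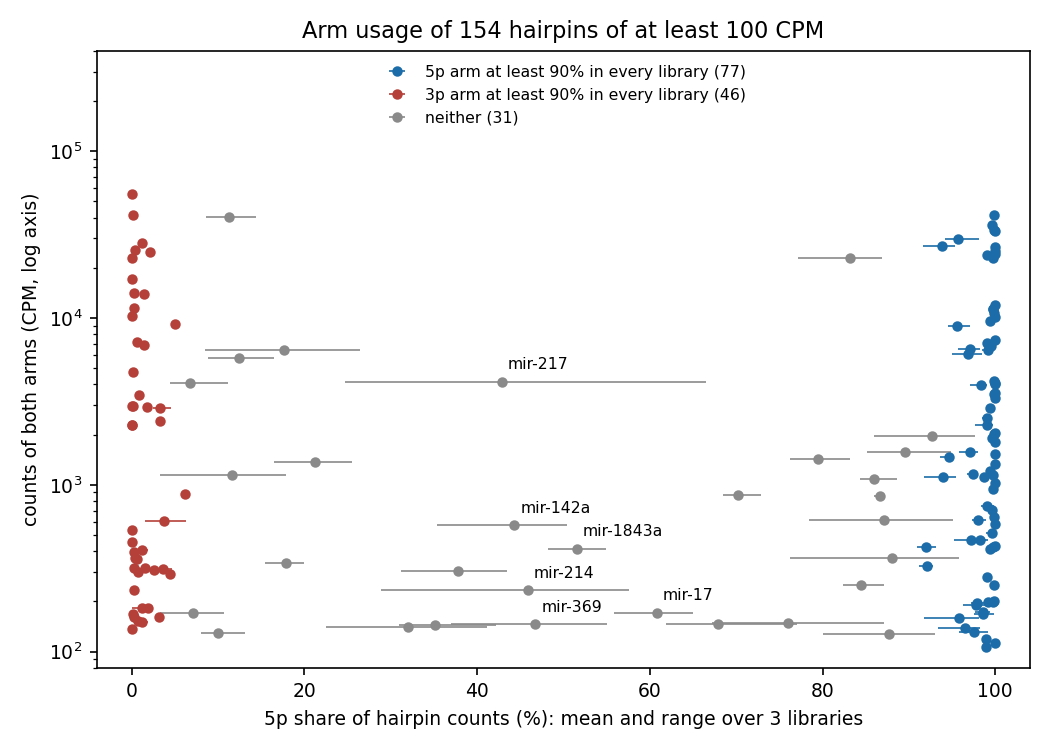
Mean 5p share of each hairpin's counts (%) against the level of both arms together (CPM, log axis) for 154 hairpins, with horizontal lines for the range over the 3 libraries. Hairpins crowd at the ends (77 on the 5p side, 46 on the 3p side), and mir-217 has the widest range, from 24.7 to 66.5%.

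Replicate spread was measured as SD/mean over the 3 libraries. Its median was 0.213 over the 191 arms of at least 100 CPM. Without Control 43, 44 or 45 it was 0.219, 0.188 or 0.136. The SD of 2 values tends to be lower than that of 3, so 0.136 cannot be set directly against 0.213. The most abundant arms were the steadiest: the median was 0.1004 for the 32 arms of at least 10000 CPM, 0.226 for the 61 arms from 1000 to 10000 CPM and 0.229 for the 98 arms from 100 to 1000 CPM. Counting error alone would give 0.00431, 0.0133 and 0.0420 in these ranges. No arm of at least 10000 CPM differed more than 2-fold between its highest and lowest library, whereas 40 of the 191 arms did (20.9%). Of these 40, 24 were highest in Control 45 and 28 were lowest in Control 44, against 55 and 75 of all 191 arms. After TMM scaling 42 arms passed 2-fold, 32 of them highest in Control 45. The matching number over all 191 arms was not computed after scaling, so the 32 cannot be set against the 55. Scaling also moved the whole set, since 107 of the 191 arms were then higher in Control 45 than in Control 44, against 86 before. edgeR's common biological coefficient of variation was 0.323 over the 376 arms it kept.

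let-7c-5p had the least spread, at 0.0120. After it came miR-216b-5p (0.0210), miR-193b-3p (0.0218), miR-3074-2-3p (0.0244), miR-22-3p (0.0251), let-7a-5p (0.0260), miR-381-3p (0.0269) and miR-153-3p (0.0274). For miR-193b-3p, miR-3074-2-3p and miR-381-3p, at 153 to 271 CPM, the observed spread was below what counting error gives on average, so 3 libraries do not show that these are steadier than other arms of their level.

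The hepatocyte marker miR-122-5p had the widest spread, at 1.19, on 118, 709 and 68 counts. miR-532-5p, from an intronic hairpin of Clcn5 on chromosome X, had 28 counts in Control 43, 8016 in Control 44 and 4994 in Control 45, or 10.8, 3443 and 2595 CPM. Its exact 95% binomial interval in Control 43 ran from 7.17 to 15.6 CPM, so counting error does not span the gap of 319-fold. The other arm, miR-532-3p, had 0, 35 and 5 counts. Arms of the same hairpin group, looked up after these values were seen, were not low in Control 43: miR-501-3p had 401, 276 and 400 CPM, miR-500-3p had 157, 93.6 and 253, miR-362-5p had 41.2, 27.5 and 39.5, and miR-188-5p had 15.0, 18.9 and 13.5. None of these 4 was lowest in Control 43, unlike both arms of miR-532.

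The other arms of wide spread were mostly high in Control 45. miR-125b-5p, whose hairpins lie within 50 kb of let-7 hairpins but not within 10 kb of them, had 4178, 2290 and 12753 CPM. miR-217-5p had 1414, 802 and 3586 CPM. miR-152-3p, with the seed of miR-148a-3p, had 2197, 1756 and 6360 CPM. Each of these was highest in Control 45 and lowest in Control 44.

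The miR-30 arms showed the same order. miR-30c-5p had 1690, 774 and 3105 CPM, and miR-30e-5p had 398, 279 and 999 CPM. The more abundant members differed among themselves. miR-30b-5p was steadier, at 11407, 10543 and 14059 CPM, whereas miR-30d-5p had 9644, 4785 and 14324 CPM. miR-30a-5p, at 5402, 3656 and 8694 CPM, was also uneven. All 6 arms with the miR-30 seed, miR-384-5p included, were higher in Control 45 than in Control 44, with a median log2 ratio of 1.42, while over all 191 arms of that level the median was -0.07 and 86 were higher. The miR-99 family ran the other way, with 3 of 3 arms lower in Control 45 and a median of -0.67. All 3 end in G, and the 51 arms of that level ending in G had a median of -0.30, with 18 higher. miR-30a-5p and miR-30e-5p end in G too, yet were higher in Control 45. Whether the last base bears on these ratios was not tested. The let-7 family lay at -0.07. TMM scaling, edgeR's correction for composition, moved the median of all arms from -0.07 to 0.11, and that of let-7 likewise changed sign to 0.11. Relative to that shift the miR-30 arms stayed high, with 6 of 6 higher, against 107 of all 191 arms, and a median of 1.59. The miR-99 arms stayed low at -0.49. miR-30a-5p and miR-30e-5p differ by 1 base, so the split of reads between them is uncertain. These families were compared after their values were seen, and the 2 libraries are single samples of one group. miR-142a-5p differed from all of these in being highest in Control 43, at 465, 138 and 160 CPM.

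**Figure D5:**
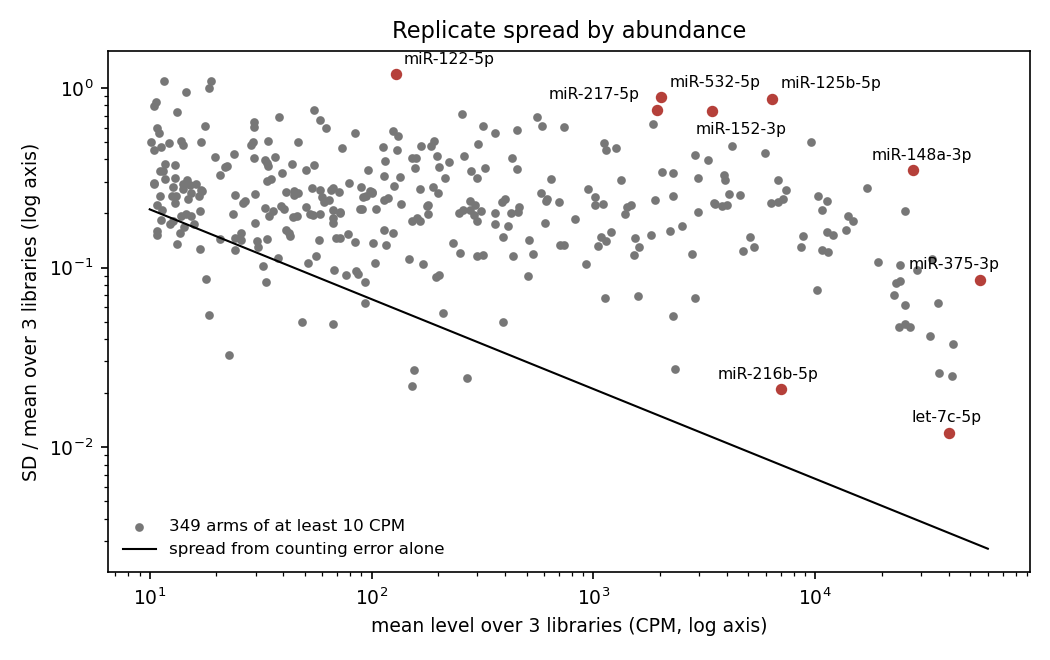
SD/mean over the 3 libraries against the mean level (CPM), both on log axes, for 349 arms of at least 10 CPM, with the spread that counting error alone gives as a line. Most arms lie above the line, let-7c-5p is the steadiest of the labelled arms (0.0120) and miR-122-5p the most variable (1.19).

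Many of the abundant arms come from hairpins that lie close together in the genome (within 10 kb on one strand, GRCm38). The 371 arms in such clusters held 55.4% ± 0.617 (SD, n = 3) of the counts. An arm with identical copies at several loci was counted in full at each, since its reads cannot be divided, and 89 such arms held 23.2% ± 0.835.

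The cluster of Mirlet7d, Mirlet7f-1 and Mirlet7a-1 (chr13:48536012-48538272, minus strand), in an exon of the lincRNA 6720427I07Rik, carried arms with 9.23% ± 0.425 of the counts. Only 2.30% came from arms with no other locus. Mir99a and Mirlet7c-1 (chr16:77598936-77599750), in an intron of the noncoding gene Mir99ahg, carried 7.39% ± 0.329. Mirlet7c-2 and Mirlet7b (chr15:85706603-85707403), in an exon of the noncoding transcript Lncppara, carried 6.72% ± 0.0875.

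Mir429, Mir200a and Mir200b (chr4:156053905-156055750, minus strand), inside the Ttll10 gene, carried 5.36% ± 0.400, all of it from arms with this single locus. Mir100 and Mirlet7a-2 (chr9:41531425-41536811) carried 3.96% ± 0.172, nearly all of it let-7a-5p, which has another locus. The single-locus arms of that cluster held 0.351%. Of these clusters, only that of the miR-200 arms holds no let-7 hairpin.

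The abundant arms also shared features of sequence. Of the 1090 known arms 41.8% begin with U, yet such arms held 74.2% ± 2.34 (SD, n = 3) of the counts. U is a base that the Argonaute pocket binds well at the 5′ end. Arms of 22 nt were 48.1% of the known arms and held 76.8% ± 1.44 of the counts. Among the 32 most abundant arms, 24 begin with U and 25 are 22 nt long. Their median GC content was 40.9%, against 45.5% for the 191 arms of at least 100 CPM and 50% for all known arms. let-7c-5p and miR-802-5p show all of these features, while miR-22-3p and miR-99a-5p begin with A.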

How the data were processed

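Per the labels' protocols, gel-selected RNA between 18 and 30 nt received adapters with molecular identifiers. The authors deposited a table of whole-number read counts per mature arm, and beside it RPM values that divide each count by a library total of 27093090 to 27876715, per the file headers and the ratio of both columns. The meaning of that total and any collapsing of identifiers are not stated in the sources used here. Bowtie2 and GRCm38.p6 are named by the submitters' processing notes. The deposited lengths of the mature sequences were used as given.

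Known arms were used, each mature sequence once (14 repeats had equal counts), and 310 predicted rows, 0.956 to 2.19% of the counts, were left out. Shares were computed per library and averaged. Spread was fitted with edgeR 4.0.16 in R 4.3.3 (filterByExpr, TMM, intercept only), which was tested on simulated data. No groups were compared and no test was run, as only 1 group was used. Sequences of 920 of the 1104 known rows were matched by name to RefSeq, all with the deposited sequence, and 1064 arms were located in GENCODE M21 hairpins. Named arms are the 15 most abundant, the leading members of the 8 largest families and of each list, 6 hairpins at each end and nearest to an even split, 8 arms at each end of the spread, and the 5 largest clusters. Any other arm was chosen after its values were seen. Members and lists were chosen with earlier results of these data known.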

Additional observations from a re-analysis of the deposited data

How the results depend on the processing

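Each of 51 values was recomputed under the settings that bear on it, from a set of 20, which gave 237 recomputed values. Of these, 215 stayed within 1 SD of the reported value (for the 2 measures of spread, the SD of their values without each library in turn), within 1.5 times for counts, or, for log2 ratios, on the same side of 0. For mean shares, leaving out 1 of 3 libraries always moves the mean by less than 1 SD. Those values could not fail this rule, so their part of the 215 is no evidence of stability. Leaving out each library in turn gave a common biological coefficient of variation of 0.297 to 0.364 and a median SD/mean of 0.136 to 0.219, and both extremes depend on 1 library: 0.364 is the value without Control 43 and 0.136 that without Control 45. Without miR-532-5p, an alternative added after seeing the data, the coefficient was 0.303. TMM scaling, also added then, turned the median log2 ratio of Control 45 over Control 44 from -0.07 to 0.11 for all arms and for let-7. As a share of the authors' library total (their RPM values), the lists fell to 0.787% (acinar), 0.545% (islet), 0.877% (epithelial), 0.0458% (leukocyte), 0.0942% (erythroid), 0.337% (endothelial), 0.171% (smooth muscle and fibroblast), 0.00110% (striated muscle), 0.0258% (liver and intestine) and 0.0163% (neural), by construction of the larger total. With at least 10 counts in every library 376 arms were detected, and with at least 10 CPM 313. The number of hairpins with neither arm at the limit was 43 with a minimum of 100 counts and 45 with a limit of 75%. With neighbours within 50 kb the cluster of Mir99a carried 8.03% and that of Mir100 4.60%, since each takes in a Mir125b hairpin. The arms among the 10 most abundant changed by at most 1. No paired analysis was possible because only 1 group was used.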
